A study of Equus caballus with 4 samples.

Results

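Myogenic transcription factors were followed in ESC (equine satellite cells, the stem cells of horse skeletal muscle) with and without HMB, a metabolite of the amino acid leucine. The genes were *pax3*, *pax7*, *myf5*, *myf6*, *myod1*, *myog*, *mef2a*, *mef2c* and *tcf12*, and their members on the array were the non-control probes that carry 1 of these 9 symbols. There were 16 such probes among 43603 non-control probes, and they belonged to 8 of the 9 genes. No probe carries the symbol of *pax7*.

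ESC came from the semitendinosus muscle of young stallions and had differentiated for 3 days. Per the methods, a primary culture was chosen for its viability and fusion, so the 4 arrays need not stand for 4 horses. In the HMB-treated group, cells received 50 µM HMB for 24 h and 3 mM H2O2 (hydrogen peroxide) in the last 1 h, and those of the control group (CTRL) received H2O2 without HMB, so every sample was exposed to H2O2. On each of 4 two-colour arrays (n = 4), RNA of the HMB-treated group labeled with Cy5 was hybridized together with CTRL RNA labeled with Cy3. The labels call the 4 arrays biological replicates and number the CTRL sample alike on each of them. If it was 1 RNA, its own spread is not in the errors given here, and the p-values measure only the spread between these arrays. The dyes were not swapped and the 4 arrays lay on 1 slide, so HMB and dye cannot be told apart, and no slide effect could be estimated. A value is the log2 ratio of the HMB-treated group over CTRL, so that a negative value means lower expression with HMB.

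The paired box factors *pax3* and *pax7* mark muscle progenitors and quiescent satellite cells. The myogenic regulatory factors are basic helix-loop-helix proteins that bind E-boxes in muscle genes: *myf5* and *myod1* commit cells to the muscle lineage, *myog* drives terminal differentiation, and *myf6* (MRF4) acts in differentiating and mature fibers. They bind DNA together with E-proteins such as that of *tcf12* (HEB), and the MEF2 factors cooperate with them on muscle promoters.

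Between 55.2% and 61.8% of the spots were well above background in a channel of an array, and Pearson's r between the ratios of 2 arrays, across probes, was 0.837 to 0.920. A probe was tested if the same channel was well above background on all 4 arrays, and was called at a limma adjusted p of 0.05 or less with a fold change (FC) of 1.3 or more. Over the whole array, 28.6% of the 24670 tested probes were called, 16.4% lower and 12.1% higher. Of the 7046 calls, 42.5% were higher. That share was 54.6% with limma's test for an FC above 1.3 (treat), 54.96% with another background correction (normexp) and loess, 60.1% with loess alone, 52.5% with centring of each array on its median, and 4.98% with centring on the spike-in RNA. The last of these moved the median of all tested probes from −0.07 to −0.67.

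Among the 9 genes, *myf5* showed the lowest mean ratio with HMB, *myf6*, *tcf12* and *mef2a* were also lower, and no gene was called higher. By its brightest tested probe, 4 of the 7 tested genes were called and all 4 were lower, against 16.3% of all tested genes that were called lower. Of these 4, *myf6* passed the background filter through its CTRL channel alone, which favours a lower value, so its direction adds little to this count. The median of the 7 genes was −0.38, against −0.06 for all tested genes. Of the 15 tested probes, 9 were called and all 9 were lower, against 16.4% of all tested probes that were called lower. The number below 0 on all 4 arrays was 10, against 37.4% of all tested probes. Both counts hold the 6 probes of *myf5*, 5 of which overlap almost wholly, so they are not counts of separate measurements. The number of ratios above 0 on all 4 arrays was 0 among the members, against 24.1% of all tested probes. In bulk RNA, fewer cells of a type and less RNA per cell cannot be told apart.

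**Figure D1:**
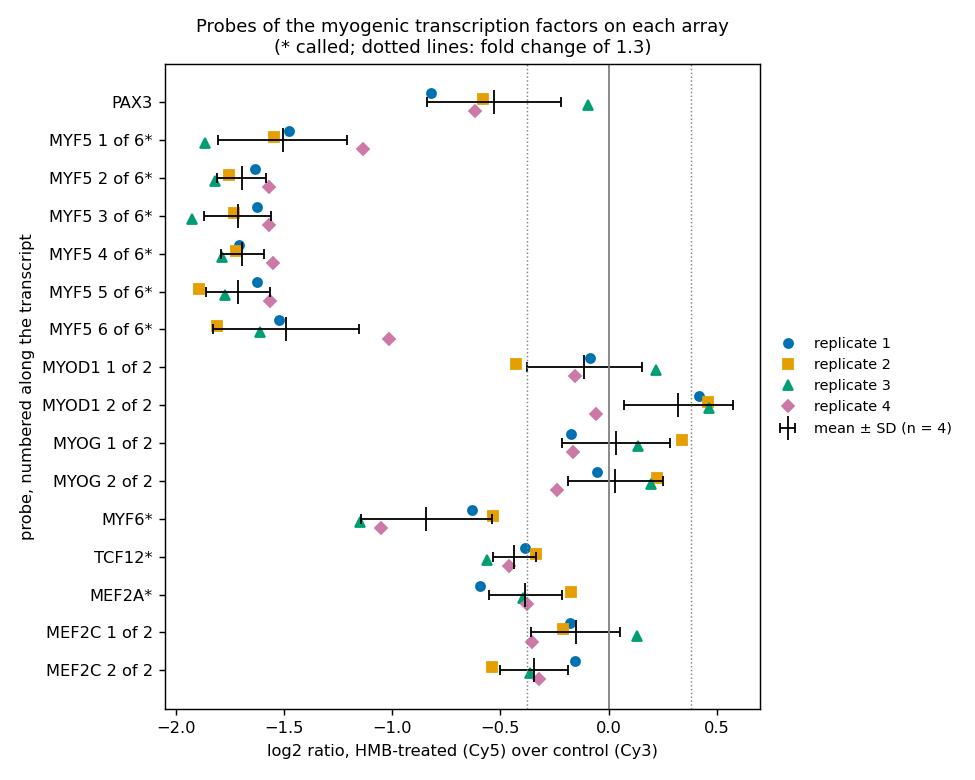
The log2 ratio (x axis) of each of the 16 probes (y axis, grouped by gene) on the 4 arrays, with the mean ± SD of the 4 arrays as a black bar; a star marks a called probe and the dotted lines an FC of 1.3. All 6 *myf5* probes sit between −1.92 and −1.02, while the *myog* probes lie on both sides of 0.

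The progenitor factors gave no usable comparison. The 1 probe of *pax3* (ENSECAT00000015993, chromosome 6, 11376663 to 11376722 on EquCab1) was well above background on 1 array in Cy3 and on 0 arrays in Cy5, and was not tested. Its ratios were −0.82, −0.58, −0.09 and −0.62, all from signals close to background. A probe that the files describe as paired box 7 without giving it a symbol (ENSECAT00000021889) had no channel above background on any array, and its deposited ratio was 0 on all 4. The mRNA of *pax7*, which defines quiescent satellite cells, was therefore not detectable in either group by this probe.

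*Myf5* was measured by 6 probes on 1 transcript (ENSECAT00000021416, chromosome 28, EquCab1), and all 6 were called lower. These probes are not independent: 5 of them start 1 base apart from each other and share 56 bases, and the last one starts 8 bases after them. They cover 2 positions of the transcript. The sequences are shown so that the overlap can be seen. The first 30 bases of the outermost of the 5 staggered probes and of the downstream probe are given, with the bases that both staggered excerpts hold in capitals.
MYF5, first staggered probe (chr28:7932539-7932598, + strand): atcaTGTGCTATGAACTAAAAATCTAGTCT
MYF5, last staggered probe (chr28:7932543-7932602, + strand): TGTGCTATGAACTAAAAATCTAGTCTagat
MYF5, downstream probe (chr28:7932611-7932670, + strand): ggtccaaaacgtccaaaagcaagacaacct

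The downstream probe of *myf5* was the brightest. Its normalized signal in CTRL was 282, 217, 328 and 227 in replicates 1 to 4, and in the HMB-treated group it was 98.1, 61.9, 107 and 112. The ranges of the groups did not overlap, and every HMB value was below every CTRL value. The log2 ratios were −1.52, −1.81, −1.61 and −1.02, with a mean of −1.49 (SD 0.34, n = 4, limma adjusted p = 3.21e-04). The FC was 2.81, and replicate 4 was the nearest to 0. The 5 staggered probes had a mean of −1.66 (SD 0.15), with −1.61, −1.73, −1.83 and −1.48 on the arrays. At both positions of the transcript, *myf5* was thus lower with HMB on 4 of 4 arrays. It was called lower in 19 of 19 alternatives. The mean of its brightest probe was nearest to 0 with normexp, at −0.71, and 1 of the staggered probes was at −0.60 there.

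**Figure D2:**
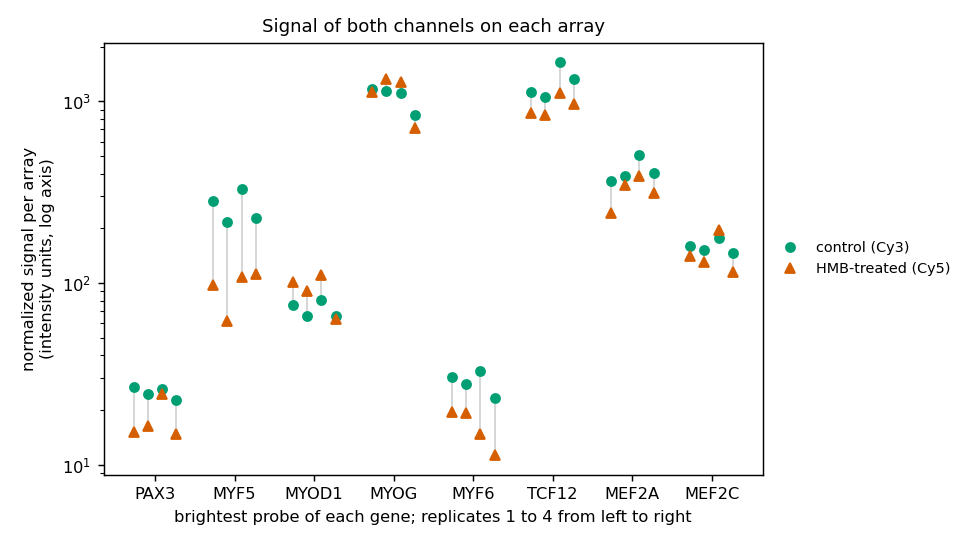
The normalized signal (y axis, log scale, intensity units) of CTRL (circles) and the HMB-treated group (triangles) on each array, for the brightest probe of each gene and the *pax3* probe (x axis); grey lines join the channels of 1 array. Levels of different probes cannot be set against each other, but within a gene the *myf5* channels are separated on all 4 arrays, while the *myog* channels change order between arrays.

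*Myod1*, the other factor of commitment, was measured at 2 places of its transcript on chromosome 7, and neither probe was called. The probe from base 1091 gave 0.42, 0.46, 0.46 and −0.06, with a mean of 0.32 (SD 0.25, n = 4, limma adjusted p = 0.0441), which is under an FC of 1.3. Replicates 1 to 3 lay close together and replicate 4 lay apart. Without replicate 4 the mean was 0.45 and the probe was called (limma adjusted p = 0.00861), whereas with centring on the spike-in RNA the mean was −0.40 (limma adjusted p = 0.0771). The probe from base 95 gave −0.09, −0.43, 0.22 and −0.16, with a mean of −0.11 (SD 0.27, limma adjusted p = 0.417). The first minus the second was 0.51, 0.89, 0.25 and 0.10, above 0 on 4 of 4 arrays (mean 0.44, SD 0.35). The probes of this gene thus differed in size, and their means in sign. An opposite direction was not shown, because the 95% interval of the probe from base 95 ran from −0.37 to 0.15. In replicates 3 and 4 the probes had the same sign. Their sequences are shown because they share no base (whole for the probe from base 95, the first 30 bases for the other).
MYOD1, probe from base 95 (chr7:73781068-73781127, + strand): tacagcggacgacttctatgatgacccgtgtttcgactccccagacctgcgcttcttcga
MYOD1, probe from base 1091 (chr7:73782821-73782880, + strand): accgcgctttaaaagcgacccatcccgagg

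*Myog*, the factor of terminal differentiation, did not pass the test. Its brightest probe had a signal of 1169, 1141, 1110 and 839 in CTRL and of 1125, 1332, 1271 and 711 in the HMB-treated group. The groups overlapped, and the order of the channels changed between arrays. The log2 ratios were −0.06, 0.22, 0.20 and −0.24, with a mean of 0.03 (SD 0.22, n = 4, limma adjusted p = 0.807). The 95% interval of the mean ran from −0.20 to 0.26, so an FC of 1.3 in either direction lies outside it. The second probe had a mean of 0.03 as well (SD 0.25, limma adjusted p = 0.807). With centring on the spike-in RNA *myog* was at −0.60 and called lower (limma adjusted p = 0.00670), with the median of all tested probes at −0.67 in that setting. The probes share 45 bases, shown in capitals, so they count as 1 measurement of *myog*. Read from its first base, the downstream probe holds no stop codon before its tga, which is followed by 6 bases.
MYOG, probe from base 758 (chr30:20042033-20042092, − strand): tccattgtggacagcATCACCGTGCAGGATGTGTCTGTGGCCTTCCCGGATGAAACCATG
MYOG, probe from base 773 (chr30:20042018-20042077, − strand): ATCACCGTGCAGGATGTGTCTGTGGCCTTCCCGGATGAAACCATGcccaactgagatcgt

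*Myf6* was lower with HMB, but from a dim probe. It has 1 probe, which lies on chromosome 28 as *myf5* does, 10004 bases before the nearest *myf5* probe. Its signal in CTRL was 30.4, 27.8, 32.9 and 23.5, well above background on all 4 arrays, and in the HMB-treated group it was 19.6, 19.2, 14.8 and 11.3, well above background on 0 of 4. The groups did not overlap. The log2 ratios were −0.63, −0.53, −1.15 and −1.05 (mean −0.84, SD 0.30, n = 4, limma adjusted p = 0.00225). As the Cy5 channel was at background, the change is only a bound. By the deposited signals, averaged over the arrays, *myf6* was at least 1.18-fold lower with HMB. For such a bound, the dim channel was set on each array to the lowest signal among probes well above background, or to its own signal where that was higher. *Myf6* was called in 16 of 18 alternatives, and not with either of the other background settings. There the means were −0.15 and −0.22, which are smaller changes than this bound, so it holds only for the deposited background subtraction. The probe is shown whole, with the first in-frame stop in capitals.
MYF6, probe from base 722 (chr28:7922475-7922534, + strand): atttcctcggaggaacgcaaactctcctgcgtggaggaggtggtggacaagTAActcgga

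The early regulators were compared with the late ones on each array, each gene being the mean of its probes. As *pax7* could not be measured, *myf5* alone stood for the early genes (*pax7* and *myf5*), and *myog* and *myf6* for the late ones. The early value was −1.60, −1.74, −1.80 and −1.40, and the late value was −0.37, −0.13, −0.49 and −0.63. Early minus late was −1.23, −1.62, −1.304 and −0.77, with a mean of −1.23 (SD 0.35, n = 4), and no p is given because the genes were chosen. This contrast has no fixed size, because *myf6* enters the late value with an HMB channel that was above background on 0 of 4 arrays, so that its own ratio is only a bound. The late gene measured above background in both channels was *myog*, and *myf5* minus *myog* was −1.48, −2.02, −1.96 and −1.20 (mean −1.67, SD 0.39). That is the value of early minus late with *myf6* left out, a setting added after the data were seen. With normexp, early minus late with *myf6* included was −0.70. Against the other early-acting factor, *myf5* minus *myod1* was −1.74 (SD 0.34). Early minus late with *myf6* was −1.10 both with median centring and with centring on the spike-in RNA. Both settings shift all probes of an array alike, so a difference between genes is the same in both by construction.

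The partners of the myogenic factors among the members changed less than *myf5* did. *Tcf12*, which encodes the E-protein HEB (chromosome 1, 131262369 to 131262428), had a signal of 1129, 1062, 1638 and 1326 in CTRL and of 865, 842, 1108 and 965 in the HMB-treated group. The groups overlapped, but the HMB channel was the lower one on each of the 4 arrays. Its ratios were −0.38, −0.33, −0.56 and −0.46 (mean −0.44, SD 0.10, n = 4, limma adjusted p = 0.00302). It was called in 15 of 19 alternatives. It was not called with treat, nor under normexp, loess alone and median centring, where the mean was between −0.35 and −0.33.

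*Mef2a*, which encodes a MADS-box factor (chromosome 1, 102349413 to 102349472), had a signal of 365, 391, 509 and 405 in CTRL and of 242, 346, 387 and 313 in the HMB-treated group. The HMB channel was lower on each array, and the groups overlapped. The ratios were −0.59, −0.18, −0.40 and −0.38 (mean −0.38, SD 0.17, n = 4, limma adjusted p = 0.0104). This is an FC of 1.31, just past the threshold, and the call was lost in 7 of 19 alternatives, among them the fit without replicate 1 (mean −0.32). *Mef2c*, its paralog, was not called by either probe. The probe from base 3779 had a mean of −0.35 (SD 0.16, limma adjusted p = 0.0134), under an FC of 1.3, with −0.15, −0.54, −0.37 and −0.32 on the arrays. The probe from base 1325, whose 60 bases span 647 bases of chromosome 14 and so are not contiguous in the genome, was the brighter one. It gave −0.18, −0.21, 0.13 and −0.35 (mean −0.15, SD 0.21, limma adjusted p = 0.209). The difference between the *mef2c* probes was 0.19 (SD 0.26), with 2 arrays on each side of 0.

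**Figure D3:**
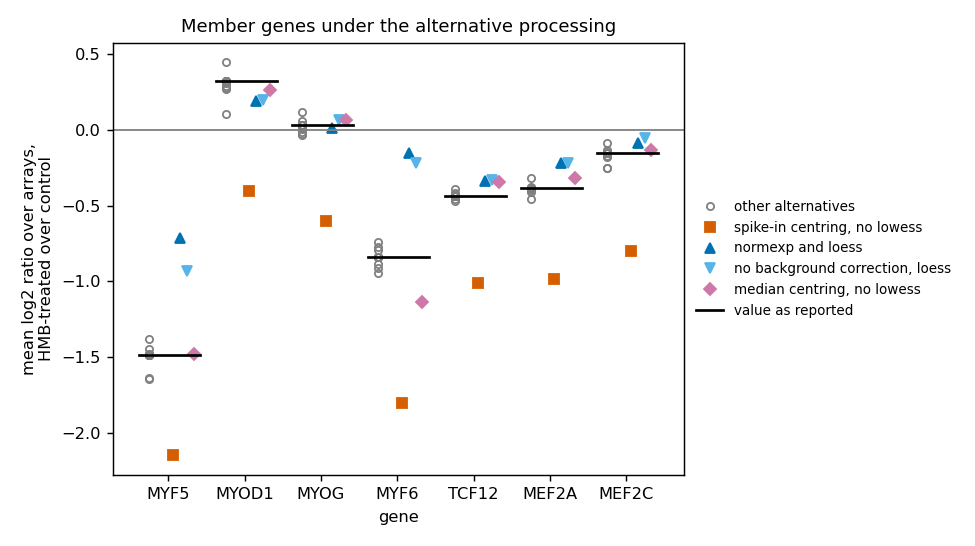
The mean log2 ratio over the arrays (y axis) of the 7 tested genes (x axis) as reported (black line) and under each alternative (symbols). The brightest *myf5* probe stays at or below −0.71 throughout. The background settings bring *myf6* to −0.15 and −0.22, and centring on the spike-in RNA lowers all genes, *myog* to −0.60.

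Genes whose ratios over the 4 arrays were most like those of *myf5* were *inhbe*, *mcoln2* and *mtus1*, with root mean square differences of 0.169, 0.184 and 0.188 among 8205 symbols. The genes most like *myog* were *gak* (0.0176), *fam117b* (0.0417) and *mafg* (0.0419). Long symbols and those starting like a sequence identifier, among them CX, BM, DN and TC, were left out, so some gene families were not compared. The ranking describes likeness of values on 4 arrays.

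Partners and cofactors beyond the members were called in both directions, but not under every setting. Of 37 listed genes, 29 were tested, 3 were called higher and 6 lower (median −0.04), against 12.3% and 16.3% of all tested genes. The counts were 1 higher and 4 lower with the methods' t-test, 0 and 2 with treat, 2 and 1 with normexp, and 0 and 25 with centring on the spike-in RNA (median −0.71). Among the lower ones were *eya1* (−1.47, SD 0.47, above background on 1 array with HMB), a transcriptional coactivator, and *mef2b* (−0.54, SD 0.27), a further MEF2 factor. Among the higher ones were *meox2* (0.84, SD 0.45), a homeobox gene of limb muscle, and *rxra* (0.72, SD 0.41, above background on 2 arrays in CTRL), a retinoid receptor. The calls of *mef2b*, *meox2* and *rxra* were lost with the methods' t-test and with treat, and that of *eya1* with normexp (−0.22). With centring on the spike-in RNA, *rxra* was at −0.16.

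Of 26 inhibitors of the myogenic factors, 18 were tested, 5 were called higher and 3 lower, against 12.3% and 16.3% of all tested genes, with a median of 0.19 that turned to −0.48 with centring on the spike-in RNA. The counts were 1 higher and 2 lower with the methods' t-test, 0 and 1 with treat, 3 and 0 with normexp, and 0 and 9 with centring on the spike-in RNA. The highest were *bhlhe40* (0.87, SD 0.40), a repressor that binds E-boxes, *ski* (0.80, SD 0.34), a corepressor of SMAD signaling, and *id3* (0.75, SD 0.36), which sequesters E-proteins. The lowest were *snai2* (−0.85, SD 0.29), a repressor that occupies E-boxes in myoblasts, *hes1* (−0.62, SD 0.29), a Notch effector, and *zeb2* (−0.43, SD 0.17), a zinc finger repressor. The calls of *bhlhe40*, *ski* and *id3* were lost with the methods' t-test, with treat and with centring on the spike-in RNA, where the means were 0.27, 0.046 and 0.16. Those of *snai2*, *hes1* and *zeb2* were lost with normexp (−0.32, −0.24 and −0.31). Over all alternatives, *snai2* was called in 17 of 18. *Hes1* and *zeb2* were each called in 13 of 18, and *bhlhe40*, *ski* and *id3* each in 14 of 18.

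Muscle genes known to be bound by MYOD1 and MYOG were mostly lower. Of 28 genes, 27 were tested, 21 were called lower and 1 higher, against 16.3% and 12.3% of all tested genes. Their median was −0.70 (per array −0.74, −0.79, −0.54 and −0.80), against −0.06 for all tested genes. Between 14 and 26 of the listed genes were called lower under the alternatives. The lowest were the perinatal and embryonic myosin heavy chains *myh8* (−1.67, SD 0.66, limma adjusted p = 0.00219) and *myh3* (−1.38, SD 0.33, limma adjusted p = 4.03e-04), and *lmod2* (−1.27, SD 0.22), which promotes growth of thin filaments. The 1 gene called higher was *eno3* (0.51, SD 0.27), the muscle enolase, which was at −0.14 with centring on the spike-in RNA. In the same samples, neither *myod1* nor *myog* was called.

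**Figure D4:**
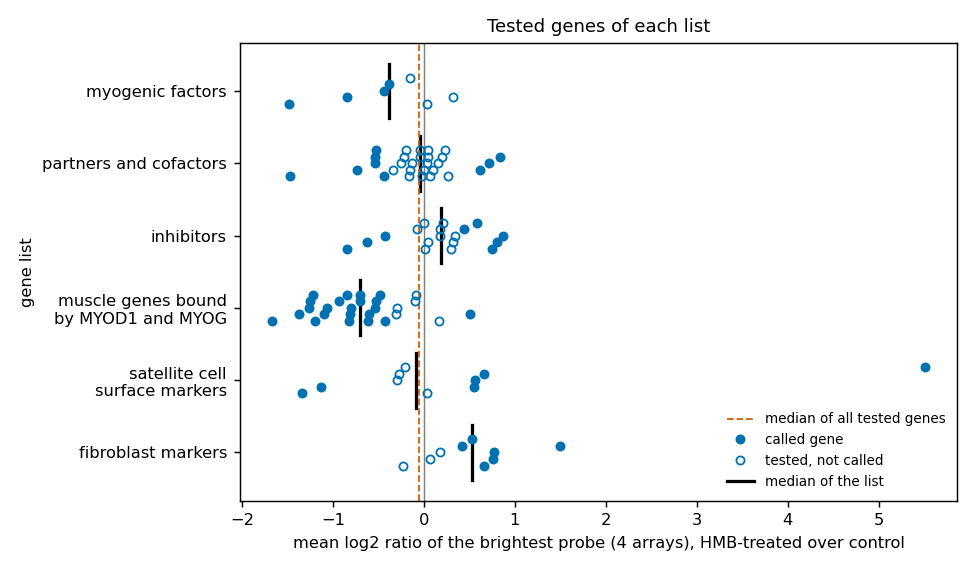
The mean log2 ratio (x axis) of the brightest probe of each tested gene, by gene list (y axis); filled points are called genes, black bars the median of the list, and the dashed line the median of all tested genes (−0.06). Muscle genes bound by MYOD1 and MYOG lie mostly below 0, partners and inhibitors on both sides, and *vcam1* at 5.51.

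Surface and quiescence markers of satellite cells were also called in both directions. Of 16 genes, 10 were tested, 4 were called higher and 2 lower (median −0.09), against 12.3% and 16.3% of all tested genes. With centring on the spike-in RNA, 1 was called higher and 6 lower (median −0.68), and neither *sdc4* nor *cav1* was called. The lower ones were *itga7* (−1.34, SD 0.29), a laminin receptor of muscle, and *ncam1* (−1.13, SD 0.21), an adhesion molecule of myoblasts and myotubes. Among the higher ones, *sdc4* was at 0.66 (SD 0.14), *cav1* at 0.56 (SD 0.12), and *vcam1*, a cell adhesion molecule of satellite cells and of activated stromal and endothelial cells, at 5.51 (SD 0.18, limma adjusted p = 8.92e-07). That is an FC of 45.4, and with normexp the log2 ratio of *vcam1* was 3.99.

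Markers of cell types were called in different directions. The 6 skeletal muscle markers, which include *myf5*, *myod1* and *myog*, were above background in both channels on all arrays, so the labelled lineage was present in both groups. Their summed signal was 26877 to 33189 in CTRL and 11418 to 17978 with HMB. Of the 6 markers, 4 were called lower, against 16.3% of all tested genes, among them *des* (−1.22, SD 0.29) and *ckm* (−0.93, SD 0.22). The other markers, *des*, *ckm* and *cdh15*, were already counted among the muscle genes bound by MYOD1 and MYOG. This count therefore repeats results given above. All 9 fibroblast markers were above background on all arrays, with a summed signal of 444782 to 544201 in CTRL and 443375 to 689342 with HMB. Such a sum follows its brightest probes. The sums of different lists cannot be set against each other, because levels of different probes cannot. Of the 9 fibroblast markers, 6 were called higher and 0 lower (median 0.53), against 12.3% and 16.3% of all tested genes. With centring on the spike-in RNA, 2 were called higher (median 0.12). The highest were *pdgfra* (1.49, SD 0.26), *dcn* (0.77, SD 0.18) and *thy1* (0.76, SD 0.12). The collagens *col1a2* (−0.23), *col3a1* (0.06) and *col1a1* (0.18) were not called by their brightest probe, but 3 of the 7 tested probes of *col3a1* were called. The endothelial and adipocyte markers, 5 and 4 genes, were not tested because none was above background on all arrays. Of 6 leukocyte markers 3 were tested and 2 called higher, *cd68* (0.88) and *ptprc* (0.51), and of 3 smooth muscle markers 2 were tested and 1 called lower, *smtn* (−0.59). With centring on the spike-in RNA, 0 leukocyte markers were called, with *cd68* at 0.20 and *ptprc* at 0.027. The part of the cell type makeup in the ratios of the myogenic factors was not tested.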

How the data were processed

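Gene expression was measured on Agilent two-colour horse arrays (60-base probes, EquCab1 annotation). The intensity values in the deposited scanner files are the signals of each channel after background subtraction and linear and lowess normalization by Feature Extraction (version 10.10.1.1 per the file headers). The deposited log10 values are the ratios of Cy5 over Cy3 that this software wrote, and the series table of the authors repeats them. A signal at or below background is replaced by a surrogate, which compresses the ratio of a dim probe. The deposited log10 ratios were turned to log2 values here, with no normalization between arrays. Spots with a mark for non-uniformity or population outliers were left out (13, 13, 13 and 35 per array), the number of saturated spots was 0, and spots of 1 probe were averaged.

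The ratio was tested against 0 with limma 3.58.1 in R 4.3.3 (intercept, empirical Bayes, Benjamini-Hochberg correction over 24670 probes), and a ratio on at least 3 arrays was needed. For genes with more than 1 probe, the brightest tested probe is given. Simulated data on 4 arrays had 24670 probes with independent noise. An FC of 1.5 was given to 68 probes, an FC of 2 to 68 and an FC of 3 to 64. Of these, limma recovered 45.6%, 79.4% and 95.3%, with 6 false calls. These shares need not hold for the data, where 28.6% of the tested probes were called. Errors from the dyes or from a shared CTRL sample were not simulated. The members, the gene lists (members, partners, inhibitors, bound muscle genes, satellite cell surface, and markers of 6 cell types), the tests and the rules were chosen with earlier results of these data known. The genes named from each list are the 3 that rose most and the 3 that fell most among called genes with the same sign on 4 arrays, and those most like *myf5* and *myog*. A few genes that this rule picks are not reported here. The lists were described by counts and medians, without a test. The alternatives are given in the closing section. Exons are not given in the files, and probes lacking a symbol were named by their description.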

Additional observations from a re-analysis of the deposited data

Results flagged for a closer look

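Among 61 sets of 4 values examined, 4 held an array that lay far from the other 3, where chance gives about 1 set in 20. For *myod1* (probe from base 1091), replicate 4 was at −0.0565 and the others between 0.42 and 0.46. For *vcam1*, replicate 4 was at 5.23 and the others between 5.59 and 5.60. For *des* and *ckm*, replicate 3 was the one apart, at −0.79 and −0.61, with the others between −1.40 and −1.32 and between −1.07 and −1.02. All 4 arrays had the same sign for *vcam1*, *des* and *ckm*, but not for *myod1*.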

How the results depend on the processing

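Precision is limited by there being 4 arrays, and signal close to background limits *pax3*, *pax7* and *myf6*. The 7046 called probes became 2822 with limma's treat, 3539 with normexp and loess, 4440 with loess alone, 20173 with centring on the spike-in RNA, and 4045 of 13974 genes with the mean over the probes of a gene. With each replicate left out in turn, they were between 6641 and 7155. The 4 called genes of the 7 tested became 2 with treat, 1 with normexp, 1 with loess alone and 2 with median centring, between 3 and 5 with a replicate left out, and 6 with centring on the spike-in RNA. *Myf5* was called lower in each of them. Early minus late (−1.23) became −0.70 with normexp, −1.67 with both channels required above background, which removes *myf6*, and −1.67 with *myf6* left out, and lay between −1.38 and −1.10 with a replicate left out. Centring on the spike-in RNA turned *myod1* to −0.40, *myog* to −0.60, *rxra* to −0.16 and *eno3* to −0.14. *Myog*, near 0, also turned to −0.0152 with a correction for probe GC content and lay between −0.0333 and 0.12 with a replicate left out. The cause of these changes was not tested. No paired analysis was possible because the samples form 1 group, and each array already pairs both RNAs. The further alternatives, the methods' t-test (5030 probes), moderation with a trend and robust, array weights, scale normalization, the authors' table, no filter on dim probes and marked spots kept, moved the number of called probes by less than 1.5 times.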
